A study of Glycine max with 6 samples.

Results

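The WRKY, NAC, ERF and DREB proteins are plant transcription factors, and the genes described here are those the array's annotation places in these families. Members were all soybean probe sets (a probe set is a group of short probes for a transcript) whose gene symbol on the platform began with WRKY, NAC or ERF followed by a digit, or with EREB or DREB. The rule rested on symbols and used no signal, though the members and the lists below were chosen with earlier results of these data known. It gave 158 of the 37593 soybean probe sets, for 84 genes: 108 probe sets for WRKY, 35 for NAC, 9 for ERF and EREB together and 6 for DREB. Of the 158, 10 carried more than 1 gene symbol and are counted but give no single gene its value. Soybean (Glycine max) cotyledons, the storage leaves of the seed embryo, were taken at 150 mg as total RNA and hybridised to 6 Affymetrix arrays. The 3 samples were a nontransgenic control, described by the submitters as jack, and 2 independent transgenic lines in which RNA interference (RNAi) was directed at seed storage proteins, here line 1 and line 2. No agent or further allele is named for any group, and cotyledon weight is given in place of age. Each sample had 2 technical replicate arrays, so each group is 1 biological sample, and p-values for a single line measure technical spread only. The construct, its promoter and target genes, and the count of seeds per sample, are unstated in the sources used here.

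WRKY proteins bind the W-box of their target promoters and are known mainly from defence against pathogens, senescence and seed development. NAC proteins form a plant-specific family with a conserved DNA-binding domain at the amino terminus, and act in organ boundaries, cell wall formation, senescence and stress. ERF and DREB proteins share the AP2 domain. ERF proteins are known for binding the GCC box of ethylene- and defence-related promoters, and DREB proteins for binding the dehydration-responsive element of drought- and cold-inducible genes. The numbers in soybean symbols do not follow those of Arabidopsis, so a role is given only where it is known from the soybean gene.

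Markers of the tissue bear on every result below. Of 12 cotyledon marker genes 9 were found in the annotation, and 13 of their 14 probe sets lay above background on both control arrays. The summed signal of these probe sets was 604972 and 593936 in the control and 304807 to 392933 on the RNAi arrays. The glycinin gene GY3, a storage protein gene, went from 17948 and 20903 to between 1639.5 and 1892. The storage protein genes GY2 (log2 differences -2.73 and -1.42) and CG-BETA-1 (-2.05 and -2.18) also fell (limma adjusted p = 0.0488 for each). GY1 had -0.99 and -0.84 (adjusted p = 0.0538 and 0.0632), and the dim CG-1 -0.84 (adjusted p = 0.203). LOX2, LOX3, KTI1 and GY5, of the same list, had -0.27 to -0.20 (adjusted p between 0.237 and 0.353). All 7 seed coat markers were found, with 5 of 8 probe sets above background in the control. Their summed signal was 22412 and 23614 in the control and 11633 to 13012 in the lines, a sum carried by PRP2, SBPRP and HPS. SBPRP had a log2 difference of -1.43 (limma adjusted p = 0.0488). PRP2 had -1.51 and -1.16 (adjusted p = 0.0491 and 0.0561), and HPS -0.37 (adjusted p = 0.115). SCB1, of the same list, rose (278 and 248 in the control, 1153 to 1258 in the lines, log2 difference 2.10, limma adjusted p = 0.0488). DFR1, not above background in the control, rose at least 1.8-fold (adjusted p = 0.0488), and ANR1 and PRP1 were not above background on any array. Of 7 leaf markers 2 were found, with 7 of 13 probe sets above background and summed signals of 130233 and 136762 in the control and 102682 to 141342 in the lines, nearly all from CAB3. VSPA, the other leaf marker, rose at 2 probe sets (log2 differences 2.04 and 2.37, limma adjusted p = 0.0488 for each). It had 0.98 at another (adjusted p = 0.0517) and -0.02 at the remaining tested one (adjusted p = 0.914). The part of these shifts in the results on transcription factors was not tested. In bulk tissue, fewer cells of a type and less RNA per cell cannot be told apart.

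The first question was which of these factors were measurable in the developing cotyledon. A probe set was taken as above background in the control when its signal exceeded, on both control arrays, the 95th percentile of probe sets that the array carries for its non-soybean organisms (75.6 and 68.4). By this rule 64 of 158 members (40.5%) were above background, beside 69.0% of all soybean probe sets. The shares were 33.3% for WRKY (36 of 108), 48.6% for NAC (17 of 35), 77.8% for ERF (7 of 9) and 66.7% for DREB (4 of 6). Counting single-gene probe sets, 20 WRKY, 9 NAC, 4 ERF and 4 DREB genes had at least 1 probe set above background. On none of the 6 arrays did 61 members exceed the background, 46 of them WRKY probe sets.

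Signals of different probe sets depend on their probes, so the brightness below says how well a probe set was measured and gives no order of transcript levels. In the control EREB had signals of 9308 and 9185, and ERF3, known in soybean as a pathogen- and drought-responsive factor, had 4079 and 4469 at its brightest probe set. The gene listed as DREB gave 3809.5 and 3725. NAC2 gave 2309 and 2206, and WRKY24 2331 and 2111 at its brightest probe set. DREB1-like, DREB5 and EREBP1 were not well above background, nor were the 5 NAC genes NAC1, NAC12, NAC26, NAC34 and NAC51, at any single-gene probe set in any sample. The same held for 28 WRKY genes, among them WRKY6, WRKY21, WRKY40 and WRKY46. WRKY54, known in soybean for drought and salt tolerance, lay just above the limit with 93.4 and 91.9.

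**Figure D1:**
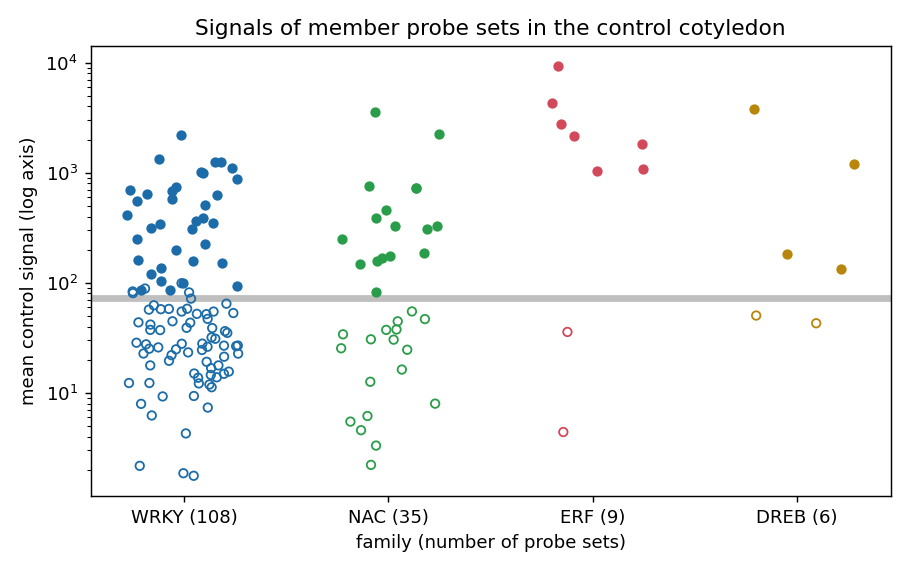
Mean control signal of each of the 158 member probe sets (log axis, n = 2 technical arrays), by family. Filled points were above background on both control arrays and open points were not, and the grey band spans the background limits of the 2 control arrays. Filled points make up 36 of 108 WRKY, 17 of 35 NAC, 7 of 9 ERF and 4 of 6 DREB probe sets.

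The second question was which of these factors differ between the control and both lines with suppressed storage proteins. Changes are log2 differences on the scale log2(signal + 16), which understates those of dim probe sets. To be tested, a probe set had to be above background on both arrays of at least 1 sample, which 73 of the 158 members did (44 WRKY, 18 NAC, 7 ERF, 4 DREB), and 9 of these 73 were not above background in the control, so that they passed only through a group where they were high. Limma, on the mean of each sample's arrays, called 1 member lower, ERF6, and 0 higher at an adjusted p below 0.05, with 26 at an unadjusted p below 0.05 (35.6%, beside 33.1% of all tested probe sets). Over all 27460 tested probe sets 0.594% were called lower and 1.05% higher, so 1 of 73 (1.37%) is close to that background. With 3 samples the design has 1 residual degree of freedom, and the adjusted p-values of all calls on the array lay between 0.0488 and 0.0498.

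Directions on the single arrays leaned downward. On all 4 RNAi arrays the signal was below both control arrays for 27 tested members (37.0%), beside 23.6% of all tested probe sets, and above both for 12 (16.4%), beside 25.9%. The counts lower and higher were 16 and 5 of 44 for WRKY, 4 and 4 of 18 for NAC, 5 and 1 of 7 for ERF and 2 and 2 of 4 for DREB. Limited to the 56 members above background on every array, 23 were lower (41.1%) and 8 higher (14.3%), beside 24.5% and 26.8% of the 24299 such soybean probe sets. Of the 2 other transcription factor families set beside them, bZIP factors had 39.4% lower and 22.7% higher (66 tested) and MYB factors 32.1% lower and 22.6% higher (53 tested), and whether the lean is particular to these families was not tested. The median log2 difference was -0.12 for WRKY, 0.05 for NAC, -0.44 for ERF and -0.10 for DREB, against 0.02 over all tested probe sets. Quantile normalization and median centring kept the sign of the 4 family medians, with 47 of 73 members below 0 under each, against 45 with the deposited scaling. Scaled to the spiked-in poly-A RNAs, all 73 stood above 0, with the median of all tested probe sets itself moved by 1.35, and relative to that shift the medians were -0.16, -0.01, -0.40 and -0.07, so that only NAC turned.

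**Figure D2:**
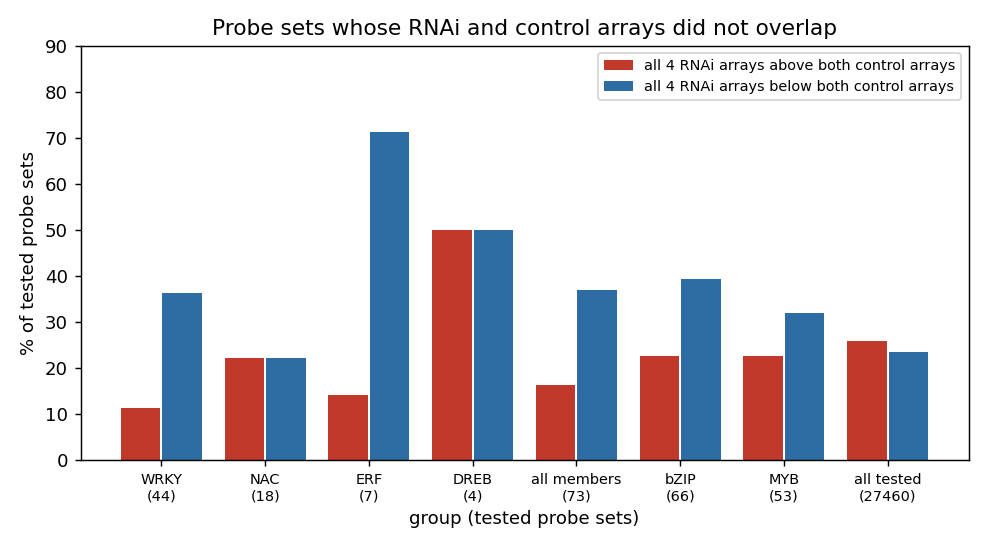
Share of tested probe sets (vertical axis, %) whose 4 RNAi arrays all lay above (red) or all below (blue) both control arrays, for the 4 families, all tested members, bZIP and MYB factors and all tested soybean probe sets, with the number tested in parentheses. Members had 37.0% lower and 16.4% higher, all tested probe sets 23.6% and 25.9%.

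In the ERF family 6 of 7 tested probe sets had a negative log2 difference (85.7%, beside 48.3% of all tested probe sets). At an unadjusted limma p below 0.05 stood 6 (85.7%, beside 33.1%). The 7 are of only 4 genes, with 3 from ERF3, and by the brightest probe set of each gene 3 of 4 were below 0. ERF6 fell. Its signals were 1006 and 1156 on the control arrays, 423 and 434 on those of line 1 and 407 and 427 on those of line 2. The 4 RNAi values lie close together and all far below both control values. This is a 2.5-fold drop (log2 difference -1.32, SE 0.10, adjusted p = 0.0488), and its log2 difference stayed between -1.42 and -1.22 under 18 alternatives. Of these, 17 gave a limma adjusted p (5.66e-06 to 0.193) and 8 passed. Among the 8 are fits that count the technical arrays as replicates, so they are not independent support. Leaving out any 1 of the 4 RNAi arrays ended the call (adjusted p between 0.0736 and 0.116, limma). Each single line against the control gave -1.30 (adjusted p = 0.00559, limma on 6 arrays) and -1.34 (adjusted p = 0.00514). ERF3 had 3 tested probe sets, and at each of them the 4 RNAi arrays lay below both control arrays. At the brightest of them the signals were 4079 and 4469 on the control arrays, 3197 and 3212 on those of line 1 and 3155 and 2858 on those of line 2 (log2 difference -0.46, SE 0.11, adjusted p = 0.0966). The others gave -0.48 (adjusted p = 0.0915) and -0.30 (adjusted p = 0.15). The 3 probe sets of this gene had the same direction, though none passed.

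ERF5, another ethylene response factor, also had all RNAi arrays below the control, with 996 and 1065 on the control arrays, 858 and 754 on those of line 1 and 696 and 783 on those of line 2 (log2 difference -0.41, SE 0.11, adjusted p = 0.119). EREB went the other way at its main probe set, with 9308 and 9185 on the control arrays, 12658 and 12333 on those of line 1 and 10119 and 10424 on those of line 2 (log2 difference 0.29, SE 0.17, adjusted p = 0.301). There line 1 stood above line 2, and all 4 RNAi arrays above both control arrays. Its other probe set had 1241 and 2386 on the control arrays, 1497 and 943 on those of line 1 and 1896 and 959 on those of line 2, where technical replicates of every sample differ widely and the groups overlap (log2 difference -0.44, adjusted p = 0.13).

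Among WRKY factors 29 of 44 tested probe sets had a negative log2 difference (65.9%, beside 48.3% of all tested probe sets) and 0 were called by limma. At an unadjusted p below 0.05 stood 13 (29.5%, beside 33.1% of all tested probe sets). WRKY33 was lower at both of its single-gene probe sets. At the brighter one the signals were 1269 and 1244 on the control arrays, 802 and 747 on those of line 1 and 888 and 876 on those of line 2 (log2 difference -0.60, SE 0.13, adjusted p = 0.0897). At the other they were 554 and 469.9 on the control arrays, 251 and 332 on those of line 1 and 308 and 332 on those of line 2 (log2 difference -0.72, SE 0.12, adjusted p = 0.0686). The groups do not overlap at either, and a further probe set shared with WRKY13 gave -0.33. WRKY47 had the largest negative difference among WRKY probe sets above background on all 6 arrays, with 406 and 327 on the control arrays, 217 and 195 on those of line 1 and 216 and 145 on those of line 2 (log2 difference -0.88, SE 0.14, adjusted p = 0.0656).

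WRKY24 had 3 tested probe sets, all with negative differences. The signals of the dimmest were 669.7 and 726 on the control arrays, 534 and 439.8 on those of line 1 and 496 and 417 on those of line 2 (log2 difference -0.56, SE 0.11, adjusted p = 0.0785). The brighter ones gave -0.13 and -0.18 (adjusted p = 0.442 and 0.339), and only the latter had overlapping groups. WRKY22 stood lower at its brightest probe set, with 1321 and 1354 on the control arrays, 983 and 930.3 on those of line 1 and 1017 and 953 on those of line 2 (log2 difference -0.46, SE 0.10, adjusted p = 0.0891). Its 3 other tested probe sets had overlapping groups and differences of -0.11, 0.10 and 0.23. WRKY27, described in soybean as a salt and drought tolerance factor, was lower at both tested probe sets. The brighter had 617 and 489.6 on the control arrays, 414 and 401 on those of line 1 and 421 and 406 on those of line 2 (log2 difference -0.41, SE 0.10, adjusted p = 0.1). The dimmer was below background on all 4 RNAi arrays, which makes it at least 1.08-fold lower (adjusted p = 0.103). WRKY51 was likewise below background on all 4 RNAi arrays at one probe set, at least 1.07-fold lower (adjusted p = 0.0959), while another gave 0.22 with overlapping groups. WRKY44 had 880.3 and 875 on the control arrays, 655 and 743 on those of line 1 and 519 and 591 on those of line 2 (log2 difference -0.49, SE 0.18, adjusted p = 0.176), lower in both lines and more so in line 2.

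Fewer WRKY probe sets were higher in the lines, and the largest of these differences were at dim probe sets. WRKY59 was the brightest of them, with 989.7 and 988 on the control arrays, 1177 and 1229.9 on those of line 1 and 1124 and 1101 on those of line 2 (log2 difference 0.22, SE 0.11, adjusted p = 0.259), although its other probe set gave -0.11. WRKY4 had 310.3 and 306 on the control arrays, 419 and 387 on those of line 1 and 366 and 538 on those of line 2 at the one of its 4 tested probe sets that was higher (log2 difference 0.44, SE 0.12, adjusted p = 0.114). WRKY37 had 38.3 and 90.9 on the control arrays, 138 and 93.5 on those of line 1 and 137 and 159 on those of line 2, with 1 control array below background (log2 difference 0.93, SE 0.19, adjusted p = 0.0806). Without control replicate 1 the difference was 0.45, and without control replicate 2 it was 1.42 (adjusted p = 0.0494). WRKY23 and WRKY41 were below background on both control arrays. The WRKY23 probe set gave 24.9 and 20.6 on the control arrays, 60.3 and 56.8 on those of line 1 and 194 and 137 on those of line 2, above background in line 2 alone, at least 1.36-fold higher in the lines together (adjusted p = 0.181). WRKY41 was above background in line 2 on both arrays and at least 1.02-fold higher (adjusted p = 0.0796). These 3 passed the filter only through the lines, where they had to be high. WRKY7 and WRKY35, with signals from 518 to 687 and from 541 to 619, differed by -0.18 and 0.03.

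**Figure D3:**
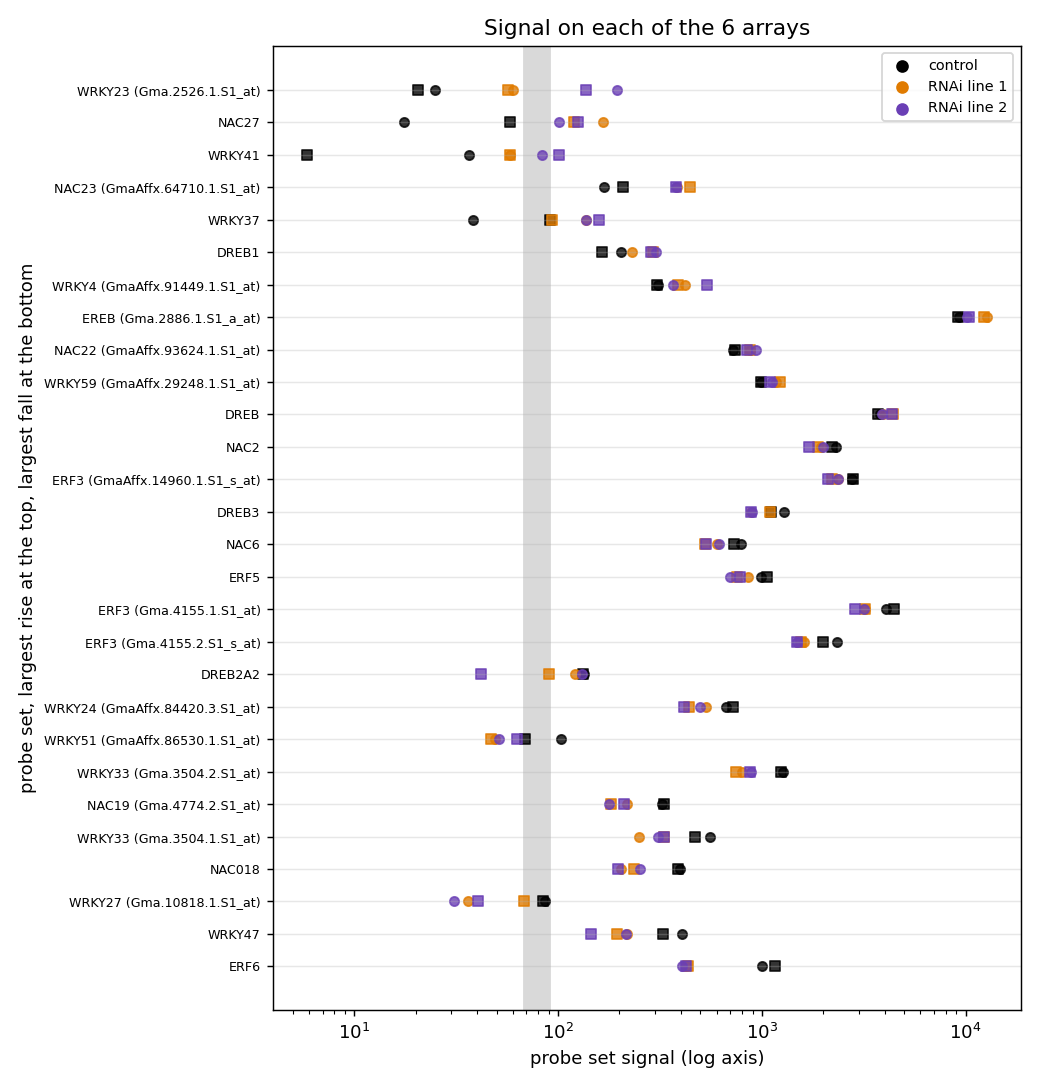
Probe set signal (log axis) on each of the 6 arrays for the member probe sets with the largest differences in each family among those whose groups do not overlap. Circles are technical replicate 1 and squares technical replicate 2, black for the control, orange for line 1 and purple for line 2, and the grey band spans the background limits of the 6 arrays. At ERF6 the RNAi arrays lie between 407 and 434 and the control arrays at 1006 and 1156, while WRKY23, NAC27 and WRKY41 have both control arrays below background.

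NAC factors were split, with 8 of 18 tested probe sets below 0 (44.4%, beside 48.3% of all tested probe sets), 10 above 0 and 0 called by limma. At an unadjusted p below 0.05 stood 6 (33.3%, beside 33.1% of all tested probe sets). NAC23 had the largest difference among NAC probe sets above background on every array. Its signals were 168 and 208 on the control arrays, 385 and 442 on those of line 1 and 379 and 379 on those of line 2, a 2.03-fold difference (log2 difference 1.02, SE 0.11, adjusted p = 0.0533). The RNAi arrays all lie above both control arrays. Its other tested probe set gave 0.31 with overlapping groups (adjusted p = 0.257). NAC27, also listed as SIN1 and known in soybean as a salt-induced factor that promotes root growth, was below background on both control arrays (17.5 and 57.8) and had signals of 165 and 119.6 in line 1 and 101 and 125 in line 2. It was at least 1.75-fold higher (adjusted p = 0.0535), and it passed the filter only through the lines. A probe set designed from the same transcript record is annotated to NAC4, so the gene behind both is uncertain, and it gave -0.10 with overlapping groups.

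On the lower side, NAC018 had 396 and 386 on the control arrays, 203 and 235 on those of line 1 and 254 and 197 on those of line 2 (log2 difference -0.78, SE 0.10, adjusted p = 0.0585), with all RNAi arrays below both control arrays. NAC19, also listed as NAC20, had 325 and 330.0 on the control arrays, 218 and 182 on those of line 1 and 177 and 211 on those of line 2 (log2 difference -0.69, SE 0.10, adjusted p = 0.0626), but -0.06 at its brighter probe set (adjusted p = 0.713), where the groups overlap. NAC6, a factor that acts in the cell death response to osmotic and endoplasmic reticulum stress in soybean, had 789 and 732 on the control arrays, 602 and 527 on those of line 1 and 614 and 535 on those of line 2 (log2 difference -0.41, SE 0.10, adjusted p = 0.0999), lower on all 4 RNAi arrays. NAC2 was lower by a small amount, with 2309 and 2206 on the control arrays, 1962 and 1895 on those of line 1 and 2006 and 1700.1 on those of line 2 (log2 difference -0.26, SE 0.10, adjusted p = 0.193). NAC22 had 0.27 at its bright probe set, where all RNAi arrays were above the control (adjusted p = 0.171), and 0.03 at the other. NAC14 differed by 0.31 and 0.07 at its tested probe sets, with overlapping groups at both.

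The 4 tested DREB genes each separated the RNAi arrays from the control arrays, 2 in each direction (over all tested probe sets 25.9% separated upward and 23.6% downward). Limma called 0 of them, with 1 at an unadjusted p below 0.05 (25%, beside 33.1% of all tested probe sets). DREB1 had 204 and 165 on the control arrays, 231 and 292 on those of line 1 and 301 and 286 on those of line 2 (log2 difference 0.55, SE 0.13, adjusted p = 0.094), higher in both lines. The gene listed as DREB had 3809.5 and 3725 on the control arrays, 3922 and 4394 on those of line 1 and 3865 and 4357 on those of line 2. Its log2 difference was small, 0.13 (SE 0.10, adjusted p = 0.411). DREB3, whose soybean protein is known to raise cold and drought tolerance, had 1279 and 1114 on the control arrays, 888 and 1101 on those of line 1 and 898 and 889.6 on those of line 2 (log2 difference -0.34, SE 0.12, adjusted p = 0.162). DREB2A2, of the DREB2 type known from heat and drought responses, had 134 and 132 on the control arrays, 121 and 90.02 on those of line 1 and 131 and 41.7 on those of line 2. It was lower on all 4 RNAi arrays, and 1 array of line 2 was below background (log2 difference -0.50, SE 0.21, adjusted p = 0.199). Without line 2 replicate 2 the difference was -0.17, and without line 2 replicate 1 it was -0.84.

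Each line was also set against the control on its own, with the spread shared over the 6 arrays. For line 1, limma called 6 of 73 tested members lower (8.22%, beside 6.32% of all tested probe sets) and 4 higher (5.48%, beside 7.97%). For line 2 it called 10 lower (13.7%, beside 6.91%) and 3 higher (4.11%, beside 8.48%). ERF6, NAC018, NAC19, the brighter WRKY33 probe set and WRKY22 were called lower in both lines, and NAC23 higher in both. The dim WRKY23 probe set was also called higher in both, but in line 1, as in the control, it was below background, so the line 1 call sets 2 unmeasured levels against each other. The comparisons share their control arrays, so this overlap is not evidence from independent samples. In line 1 the other WRKY33 probe set was also called lower, and NAC27 and EREB higher. In line 2 ERF3 at 2 probe sets, WRKY47, WRKY44 and 1 probe set of WRKY4 were also called lower, and a probe set of NAC5, annotated to 2 gene records, higher.

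The lines were then compared with each other on 6 arrays. Limma called 0 of 73 members, beside 0% of all tested probe sets, with 7 members at an unadjusted p below 0.05 (9.59%, beside 5.82%), and no other tool was run. The difference of largest size was at NAC3, -1.64 (line 1 minus line 2, adjusted p = 0.941), where the signals were 263 and 74.3 on the control arrays, 86.0 and 49.7 on those of line 1 and 592 and 91.2 on those of line 2. Both the control and line 2 hold 1 array several times brighter than its technical replicate, so this difference does not stand clear of technical spread. WRKY12 had 30.9 and 4.6 on the control arrays, 85.8 and 79.3 on those of line 1 and 27.4 and 9.1 on those of line 2, above background in line 1 alone and too near the limit there for a fold (adjusted p = 0.78). WRKY15 had 187 and 211 on the control arrays, 216 and 261 on those of line 1 and 170.0 and 122 on those of line 2, above the control in line 1 and below it in line 2 (difference 0.67, adjusted p = 0.78). The dimmer WRKY10 probe set was below background in line 2 and at least 1.16-fold higher in line 1 (adjusted p = 0.964). At WRKY23, below background in line 1, line 2 was at least 2.16-fold higher (adjusted p = 0.627). Over tested members the median of the largest log2 gap between technical replicates was 0.34, beside 0.29 over all tested probe sets. The median absolute difference between lines and control was 0.31, beside 0.26 over all tested probe sets. The gap is between single arrays and the difference between means of arrays, so their sizes are not directly comparable.

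**Figure D4:**
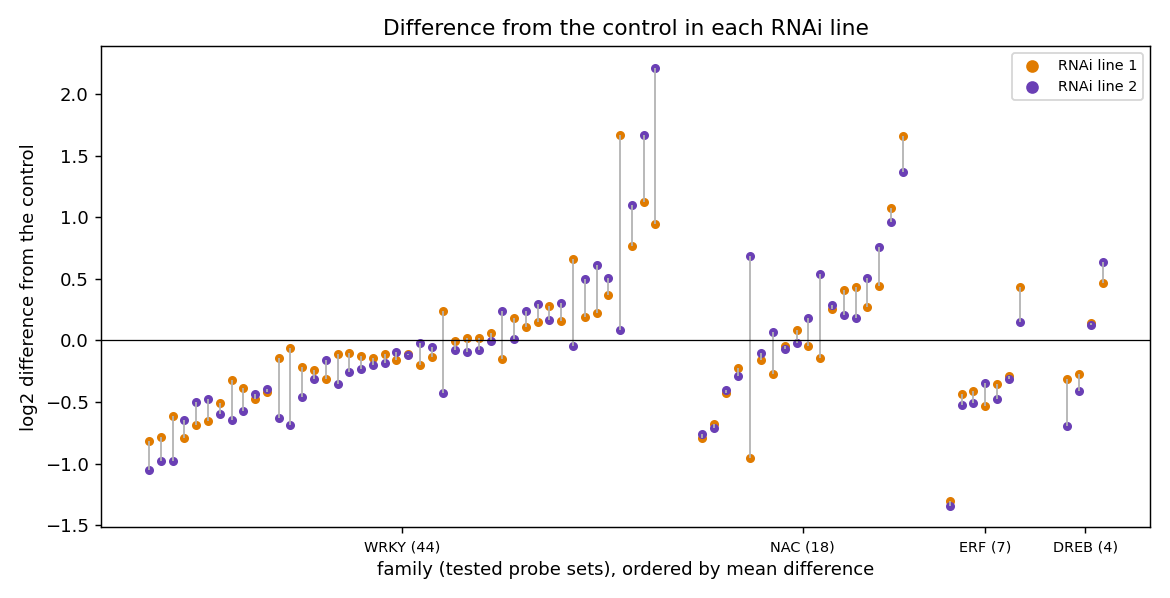
Log2 difference from the control (vertical axis) of line 1 (orange) and line 2 (purple) for each of the 73 tested member probe sets, grouped by family and ordered by their mean, with a grey line joining the lines' values for the same probe set. Both lines were below 0 at 40 probe sets, both above 0 at 22 and of opposite sign at 11, all against the same 2 control arrays. The fitted values of 6 probe sets below background on one side are only bounds in size.

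For 19 genes more than 1 single-gene probe set was tested, which shows how far probe sets of the same gene bear each other out. In 8 of the 19 all probe sets had the same sign, 5 with all lower (ERF3, NAC19, WRKY24, WRKY27 and WRKY33) and 3 with all higher (NAC14, NAC22 and NAC23), and in 11 the signs were mixed. At WRKY23 the dim probe set, with only the bound given above, was higher, and another had -0.94 (adjusted p = 0.0668) with 3 of the 4 RNAi arrays below background. WRKY4 ranged from -0.39 to 0.44, and its probe sets between gave -0.04 and -0.15. WRKY56 had -0.48, -0.23 and 0.42, the last with 1 control array below background. Taking only the brightest probe set of each gene, 27 of 42 tested genes were below 0 (64.3%, beside 48.3% of all tested probe sets). All RNAi arrays were lower for 17 (40.5%, beside 23.6%) and higher for 10 (23.8%, beside 25.9%). The share higher was thus near that of all tested probe sets. The shares over all tested probe sets were not recomputed with 1 probe set per gene.

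**Figure D5:**
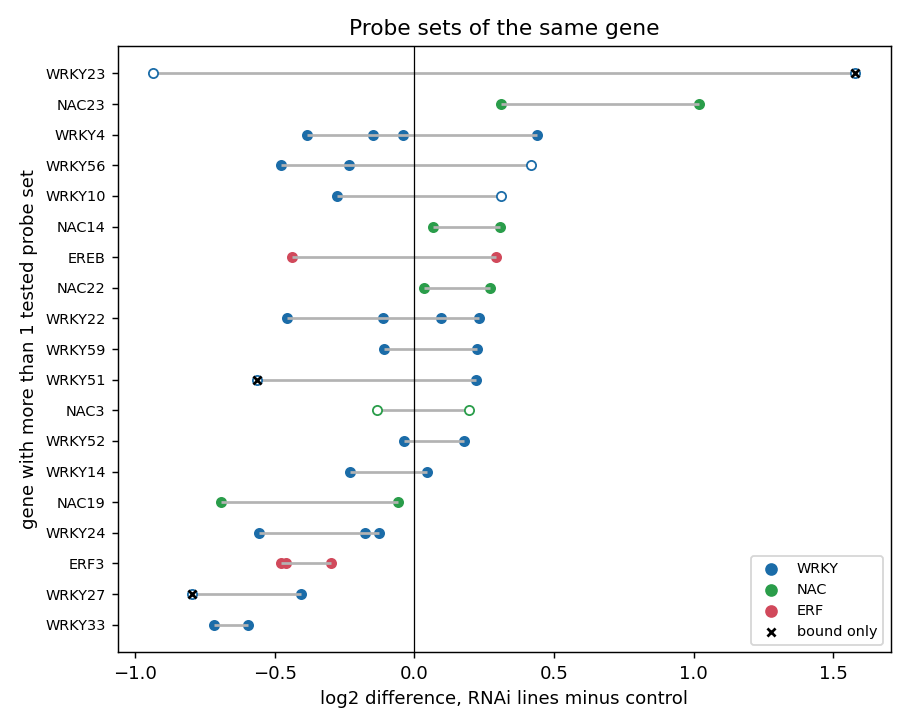
Log2 difference, RNAi lines minus control (horizontal axis), of each tested probe set of the 19 genes with more than 1, joined by a grey line per gene. Filled points were above background on all 6 arrays and open points were not. Crosses mark fitted values of probe sets below background on one side of the comparison, whose size is only a bound (WRKY23, WRKY27 and WRKY51). The probe sets of 8 genes lie on 1 side of 0.

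Genes of the pathways in which these factors act were described from lists of symbols. Of 3 tested ethylene synthesis and signalling probe sets 0 were called, with 1 at an unadjusted p below 0.05 (33.3%, beside 33.1% of all tested probe sets). ACS1, which encodes a synthase of the ethylene precursor, had 148 and 113 on the control arrays, 67.7 and 50.3 on those of line 1 and 64.6 and 77.1 on those of line 2. All 4 RNAi values are below background, which makes it at least 1.63-fold lower (adjusted p = 0.0686). The ethylene receptor genes EIN4 and ETR2 differed by -0.14 and -0.12. In the list for jasmonate and salicylate signalling and pathogenesis-related proteins 0 of 14 tested probe sets were called, with a list median of 0.18. At an unadjusted p below 0.05 stood 1 (7.14%, beside 33.1% of all tested probe sets). The 14 were probe sets of COI1, AOS1, AOS2, AOC3, AOC6, PAD4 and EDS5, so no pathogenesis-related protein was tested. COI1, the jasmonate receptor, had 0.54 at the probe set of largest difference (adjusted p = 0.0962) and -0.05 to 0.20 at the others. AOS2, of jasmonate synthesis, had 0.34 (adjusted p = 0.17). AOC3, of the same pathway, had -0.32 at the probe set of largest negative difference (adjusted p = 0.316).

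A further list was drawn up for drought- and cold-responsive genes, of the kind DREB factors drive in Arabidopsis. In it 5 of 42 tested probe sets were called higher (11.9%, beside 1.05% of all tested probe sets) and 0 lower. At an unadjusted p below 0.05 stood 22 (52.4%, beside 33.1% of all tested probe sets), and the list median was 0.40. The 5 called were all of seed maturation genes (PM22, PM29, PM35, PM3 and PM13), and no COR, ERD, GOLS, SRC or LEA probe set was called. Limma made 0 calls on the whole array, these 5 included, with no filter, robust moderation, a pseudocount of 1, median centring or quantile normalization, or with any RNAi array left out. The seed maturation genes PM22 (1.76) and PM29 (1.67) had the largest rises. SRC2 had 813 and 898 on the control arrays, 334 and 393 on those of line 1 and 353 and 444 on those of line 2, lower in both lines (-1.14, adjusted p = 0.0517). PM30 had -0.22 at its probe set of largest negative difference (adjusted p = 0.289). This list is mostly of seed maturation genes, which are induced in late seed development also without stress. In the soybean cell death pathway to which NAC6 belongs 0 of 11 were called, with 8 at an unadjusted p below 0.05 (72.7%, beside 33.1% of all tested probe sets). NRP-A, an asparagine-rich protein of that pathway, had 449 and 499 on the control arrays, 321 and 292 on those of line 1 and 276 and 266 on those of line 2 (-0.69, adjusted p = 0.0745). Its other probe set had -0.56 with overlapping groups (adjusted p = 0.362). NRP-B went the other way, with 811 and 810 on the control arrays, 1188 and 1156 on those of line 1 and 1219 and 1141 on those of line 2 (0.53, adjusted p = 0.076). VPE2, of the vacuolar processing enzymes, had -0.54 at its probe set of larger difference (adjusted p = 0.126). The chaperone gene BIP4 had 0.88 (adjusted p = 0.0594) and, at its other probe set, 0.32 (adjusted p = 0.143). ERD15, a regulator in the same pathway, had 0.75 at the probe set of larger difference (adjusted p = 0.0686). The list of abscisic acid genes matched no symbol.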

How the data were processed

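Total RNA was labelled with a one-cycle kit and hybridised to Affymetrix arrays, per the labels. The deposited values are linear probe set intensity, on a common scale as the values themselves show: without the lowest and highest 2% of probe sets each array's mean was 500.1. The sources used here name neither software settings nor a genome build, and coordinates are left out. Gene symbols came from the platform annotation, and an update from RefSeq's soybean genes (assembly Glycine_max_v4.0) left the members as they were. The number of arrays limits the precision of every value.

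Background was the 95th percentile of 23350 probe sets of other organisms (68.4 to 91.7 by array), and 27460 of 37593 soybean probe sets were tested. Models used limma 3.58.1 in R 4.3.3 (lmFit, eBayes) on log2(signal + 16), with Benjamini-Hochberg adjustment over all tested probe sets: the mean of each sample's 2 arrays for both lines against the control (1 residual degree of freedom), and 6 arrays in 3 groups for single lines (3 residual degrees of freedom). The first fit takes the single control sample to be as variable as the RNAi samples, and its handling and genotype cannot be told apart. A probe set below background on both control arrays, or on all 4 RNAi arrays, has only a bound, taken by raising each array of the dim group to its background limit where it lay under it and comparing mean log2 values.

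Named are, by family, called probe sets, the 6 largest differences each way without overlap (4 for DREB), the 5 brightest, the 3 largest line differences each way and genes whose probe sets disagree in sign by over 0.3 each way, and in each list the 2 of largest difference each way. WRKY7, WRKY13, WRKY14, WRKY35, WRKY44, WRKY54, NAC5, PM3, PM13, PM35, NRP-B, the genes listed as not above background and the single-line calls fall outside this rule. They were chosen after their values were seen. The members and lists were chosen with earlier results of these data known. The fits were tested on simulated data. Alternatives were other normalizations, filters, pseudocounts, moderation and replicate treatments.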

Additional observations from a re-analysis of the deposited data

Results flagged for a closer look

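At 2 WRKY probe sets both arrays of line 1 lay on one side of the control arrays and both arrays of line 2 on the other, which is why they are given here. At the brighter WRKY14 probe set the signals were 169 and 154 in the control, 149 and 139 in line 1 and 197 and 189.7 in line 2, a difference of -0.39 (line 1 minus line 2, log2). At WRKY15 line 1 stood above and line 2 below the control, a difference of 0.67. Each was picked by direction alone, without a test, and in the limma fit comparing the lines the adjusted p was 0.779 for WRKY14 and 0.780 for WRKY15.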

How the results depend on the processing

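With both lines against the control, 1 member was called. It was 0 with no filter, robust moderation, a pseudocount of 1, median centring or quantile normalization, 7 with background at the 99th percentile, 8 with a pseudocount of 64, 24 with an intensity trend, 18 with the 6 arrays as replicates, 30 with sample as a random block and 66 with poly-A spike scaling. Leaving out 1 array gave 0 (any RNAi array) to 7 (without control replicate 2). For line 1 (10 called) the member count was 67 with spike scaling, 3 with no filter, 17 with an intensity trend and 0 to 5 without 1 array. For line 2 (13 called) it was 66, 2, 24 and 2 to 7, and 21 with a pseudocount of 64. The line comparison kept 0 member calls throughout. With spike scaling 64 members did not overlap between groups, all of them higher. With the deposited scaling 39 did not overlap, 12 higher and 27 lower. Under spike scaling only 0.896% of all tested probe sets had a negative log2 difference. The replicate block gave 12 calls for both lines together, 6 for line 1 and 5 for line 2, and same-numbered arrays did not deviate together (correlations 0.02, -0.01 and 0.02). The cause was not tested for any of these.

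Of 854 alternative values for 48 named probe sets, 692 kept direction and side of the threshold. Another 46 without a p (spike scaling) kept direction only, 91 newly passed, 9 lost the call (all ERF6) and 16 reversed. Some of the 91 came from fits that count technical arrays as replicates. Relative to the median probe set, spike scaling gave -0.0151 for the NAC3 probe set shared between transcripts and -0.0224 for the dimmer WRKY10 probe set. Without 1 array the log2 differences ranged from -0.905 to 0.0289 for the dimmer EREB probe set, -0.122 to 0.00703 for the brighter of NAC19, -0.0286 to 0.651 for the dimmer of NAC23, -0.948 to 0.680 for the NAC3 probe set unique to it, -0.0807 to 0.474 for the shared one, -0.406 to 0.207 for NAC4, -0.373 to 0.99 for the dimmer of WRKY10, -0.198 to 0.0183 for WRKY15, -0.113 to 0.0317 for the WRKY4 probe set with a difference near 0 and -0.583 to 1.42 for the dimmest of WRKY56. The dim probe sets among these lie near background, where signal limits precision.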
